A study of Homo sapiens with 14 samples.

Results

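RH30 cells under a pair of control conditions were compared, and the regions of open chromatin that one pair of libraries had and the other lacked were described. RH30 is an established line of alveolar rhabdomyosarcoma, a childhood tumour of the muscle lineage, and carries the PAX3-FOXO1 fusion in every group. One control was 0.1% DMSO, the vehicle of the KDM4 inhibitor QC6352. The other was a control hairpin, labelled shCtrl and introduced by transduction, the control of the hairpins against the histone demethylase KDM4B. The labels give 72 h for the treatments. Each control had 2 libraries, and both belong to a series of 14 ATAC-seq libraries. The others used here are RH30 with 200 nM QC6352 (2), RH30 with either KDM4B hairpin, labelled shKDM4B-813 and shKDM4B-814 (2 each), and LHCN, a line of immortalised human myoblasts, with an empty vector or PAX3-FOXO1 (2 each). Of the 173631 regions in the 4 peak lists, 30527 differed between the groups: 13959 had a peak in both libraries labelled shCtrl and in neither DMSO library (shCtrl-only), and 16568 had the reverse (DMSO-only). Both groups come from 1 cell line, the labels do not say whether libraries came from separate cultures, and no untreated, untransduced RH30 library was analysed here.

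The names inside the lists go against the labels of the hairpin libraries, and this touches every result given here. Each peak carries a name given by the authors, with the sample it was called in. In all 6 hairpin libraries that name is another hairpin than the sample title: the libraries labelled shCtrl carry sh813, those labelled shKDM4B-813 carry sh814 and those labelled shKDM4B-814 carry shCtrl. In the other 8 libraries, DMSO and QC6352 included, name and title match. Which of the 2 is right cannot be told from the lists. Groups below follow the labels, "shCtrl-only" means only in the libraries labelled shCtrl, and the comparison by peak name is given beside the results and in full at the end.

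ATAC-seq marks DNA that the Tn5 transposase can reach, which in living cells is mostly promoters, enhancers and other sites held free of nucleosomes by bound factors. Promoter-like sites tend to be open in many cell types, whereas enhancers differ between them. Open sites are densest where genes are dense, as on chromosomes 16, 17, 19 and 22 and towards many chromosome ends, and sparse on chromosomes 4, 13, 18 and X. A vehicle and a control hairpin are both meant to leave the cells' chromatin as it is.

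The lists held 135927 and 146395 peaks for shCtrl (141161 ± 7402, mean ± SD, n = 2) and 105136 and 129337 for DMSO (117236 ± 17113, n = 2). They do not give read depth. All 4 were trimmed to the 105136 strongest peaks by the authors' −log10 q. The trimming fell within ties: the last peak kept and the first dropped both had −log10 q of 5.39 in the first shCtrl list, 5.35 in the second and 4.83 in the second DMSO list. The first DMSO list was kept whole, down to 2.54. With 2 libraries against 2, there are too few regroupings for an exact permutation test to pass a usual threshold, so no region has a test of its own. The p-values given further on rest on the spread between libraries, which could be technical.

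The shCtrl-only regions made up 8.04% of the 173631 regions, and the DMSO-only regions 9.54%. A further 45679 regions (26.3%) were present in all 4 lists, and 72302 (41.6%) in a single list. The Jaccard index, the regions 2 lists share over the regions either has, was 0.531 between the shCtrl libraries and 0.610 between the DMSO libraries. Across the groups its 4 values ran from 0.413 to 0.420, below both within-group values. In the lists as deposited, 2057 shCtrl-only regions (14.7%) had a weaker peak in the second DMSO list. The first DMSO list was not trimmed, so none could have one there. Of the DMSO-only regions, 1280 (7.73%) had a weaker peak in the first shCtrl list and 1776 (10.7%) in the second. These shares rest on lists trimmed to different extents and are not compared. Leaving out 1 library, which makes the rule looser, moved 5 of 8 counts by more than 1.5 times. There were 36199 shCtrl-only regions without the first shCtrl library, 36534 without the second and 21562 without the first DMSO library. DMSO-only regions numbered 44873 without the first DMSO library and 34985 without the second. The other 3 counts were 17309 shCtrl-only regions without the second DMSO library, and 22297 and 23083 DMSO-only regions without the first or the second shCtrl library. The region totals of these runs are not given, so the counts are not shares. By peak name, with lists of 93488 peaks, hairpin-only regions numbered 4738 and DMSO-only regions 7738.

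The 2 classes differed in width. The shCtrl-only regions had a median width of 676 bp (quartiles 456 and 1036), near that of the regions present in all 4 lists (803 bp, quartiles 494 and 1361). The DMSO-only regions were narrow, with a median of 338 bp (271 and 465). Of the shCtrl-only regions, 3746 (26.8%) were 1000 bp or wider, against 254 (1.53%) of the DMSO-only regions. The widest shCtrl-only region spanned 10122 bp and the widest DMSO-only region 2766 bp. Together the shCtrl-only regions covered 12.0 Mb and the DMSO-only regions 6.59 Mb.

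The difference in width was also there in the length that a single library's peaks covered within a merged region. Where a library had 2 or more peaks in a region, their lengths were added. This held for 11.2% and 8.79% of the shCtrl-only regions in the shCtrl libraries. For the DMSO-only regions in the DMSO libraries it held for 1.41% and 0.851%. In shCtrl-only regions the median covered length was 476 bp in the first shCtrl library and 521 bp in the second. In DMSO-only regions it was 269 and 287 bp in the DMSO libraries, so the groups did not overlap. Regions present in all 4 lists showed the reverse order, at 469 and 489 bp in the shCtrl libraries against 583 and 649 bp in the DMSO libraries. Over whole lists of equal length the median peak widths interleaved, at 388 and 407 bp for shCtrl and 362 and 397 bp for DMSO. Neither group thus had the wider peaks over its whole list.

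**Figure D1:**
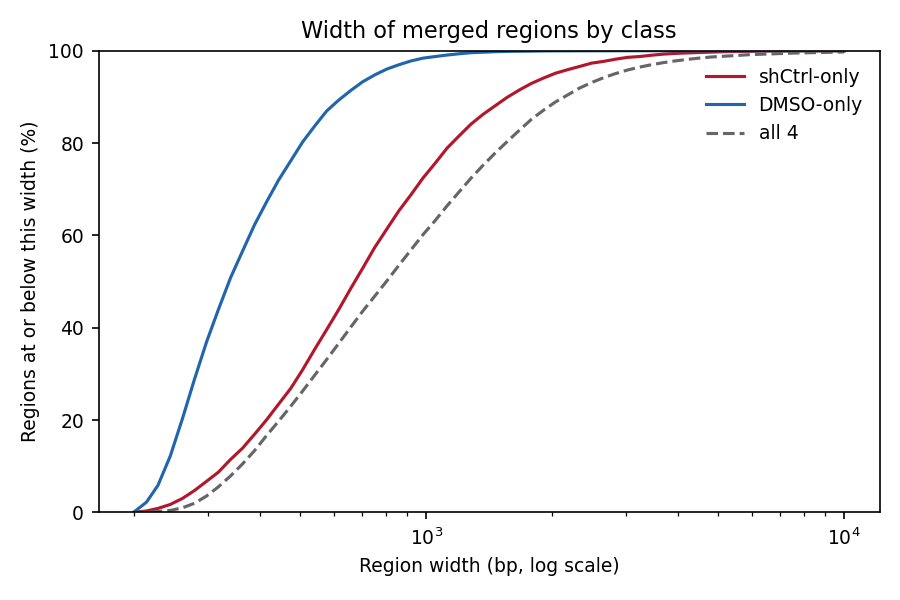
Cumulative share of regions (vertical axis, percent) at or below a given width (horizontal axis, bp, log scale) for shCtrl-only, DMSO-only and all-4 regions. The DMSO-only curve rises first, with a median of 338 bp, and the shCtrl-only curve (676 bp) lies near that of the regions present in all 4 lists (803 bp).

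By rank, both classes lay mostly below the middle of their lists. A peak's within-list percentile is its rank by −log10 q, with 100 the strongest. The median percentile of the shCtrl-only regions was 36.5 and 36.2 in the shCtrl libraries, and that of the DMSO-only regions 40.2 and 39.2 in the DMSO libraries. Regions present in all 4 lists had medians of 76.3 to 77.3. Peaks in the upper part of the list (percentile above 50) made up 29.0% and 29.3% of the shCtrl-only regions and 31.3% and 31.2% of the DMSO-only regions. By the authors' own values the classes lay apart. A −log10 q of 10 or more was reached by 17.4% and 24.3% of the shCtrl-only regions in the shCtrl lists and by 43.7% and 41.4% of the DMSO-only regions in the DMSO lists. The highest fold value was 14.9 and 13.9 in the former and 23.6 and 18.9 in the latter. These values depend on each list's own scale: at regions present in all 4 lists, 73.8% and 78.8% reached that q in the shCtrl lists and 87.9% and 88.6% in the DMSO lists.

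Width rose with strength among the shCtrl-only regions and hardly at all among the DMSO-only regions. Ranked by the lower of the 2 percentiles, the 6144 shCtrl-only regions at 20 or below had a median width of 558 bp, close to the 598 bp of all-4 regions of that strength. The 881 between 60 and 80 had a median of 1648 bp, against 793 bp for all-4 regions of the same strength. The 1274 DMSO-only regions between 60 and 80 had a median of 409 bp, against 688.5 bp for all-4 regions. The strongest shCtrl-only regions were thus broader than shared regions of equal rank, and the DMSO-only regions narrower.

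The chromosomes divided between the classes. On chromosome 19, 1414 of 7445 regions (19%) were shCtrl-only and 222 (2.98%) DMSO-only. Chromosome 17 followed with 17.3% and 3.45%, chromosome 9 with 15.8% and 6.80%, chromosome 22 with 15.3% and 3.12%, and chromosome 16 with 13.4% and 5.53%. The order was reversed on chromosome X, where 0.920% were shCtrl-only and 18.2% DMSO-only, and on chromosome 6, with 0.781% and 15.7%. On chromosomes 13 and 18 the shCtrl-only shares were 1.57% and 1.13%, and the DMSO-only shares 15.7% and 14.5%. In all, the shCtrl-only share was the higher on 8 of 24 chromosomes and the DMSO-only share on 16. Chromosome 17 alone, with 12188 of the 173631 regions, held 15.1% of all shCtrl-only regions and 2.54% of the DMSO-only regions. Chromosome 19 kept this order with the strongest 50000 peaks of each list, at 11.1% shCtrl-only and 4.75% DMSO-only. The order turned when peaks had to reach a −log10 q of 10, which left lists of unequal length (43219 and 48226 shCtrl peaks, 59497 and 58637 DMSO peaks). Then 7.07% of its regions were shCtrl-only and 8.56% DMSO-only.

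**Figure D2:**
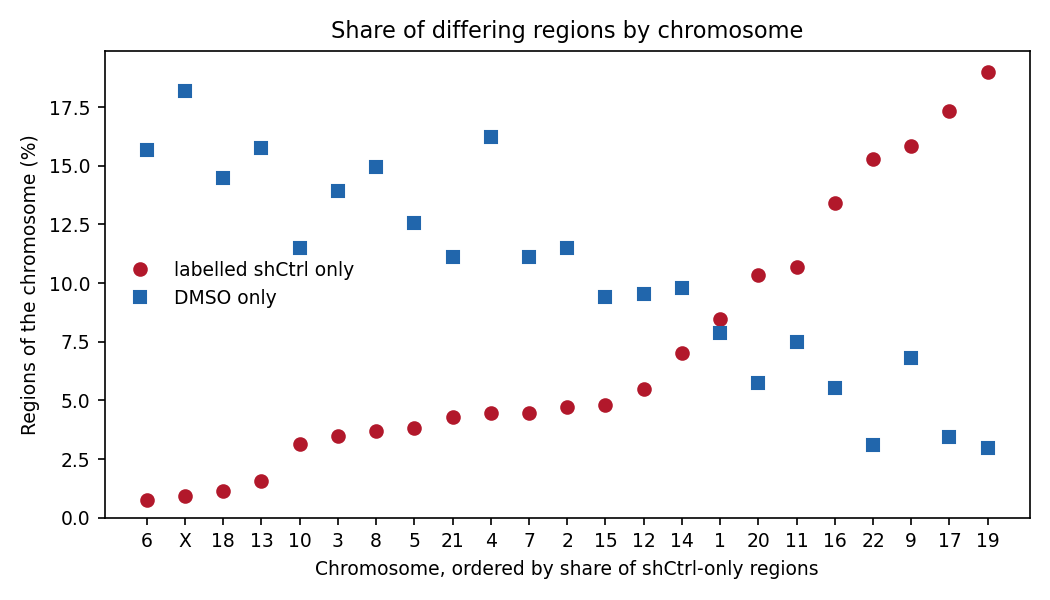
Share of each chromosome's regions (vertical axis, percent) that were shCtrl-only (circles) or DMSO-only (squares), for chromosomes 1 to 22 and X ordered by the shCtrl-only share. The shCtrl-only share runs from 0.781% on chromosome 6 to 19% on chromosome 19, while the DMSO-only share runs roughly the other way.

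A shift in rank was also seen at regions that did not differ in presence. It is taken from the same ranks that trimmed the lists and so set the classes. It is therefore not separate support for the division of the chromosomes. At regions present in all 4 lists, the within-list percentile in shCtrl minus that in DMSO had a median of 2.12 on chromosome 17, 1.88 on chromosome 22 and 1.14 on chromosome 19. It was -4.36 on chromosome X, -3.75 on chromosome 8 and -3.45 on chromosome 3. Over all 24 chromosomes the sign of the shift went with the class of higher share on 20. The 4 others were chromosome 1 (-0.73) and chromosome 20 (-0.0033), where the shCtrl-only share was the higher, and chromosome 12 (0.061) and chromosome Y (3.66), where the DMSO-only share was.

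Distance to the chromosome end, taken as the outermost peak of any of the 14 lists, separated the classes as well. The median distance was 8.69 Mb for shCtrl-only regions, 33.0 Mb for DMSO-only regions and 27.1 Mb for regions present in all 4 lists. Within 5 Mb of an end lay 5446 shCtrl-only regions (39.0%) and 1156 DMSO-only regions (6.98%), against 13.1% of all-4 regions. Of the 13658 regions in the outermost 2 Mb, 20.5% were shCtrl-only and 3.35% DMSO-only. Beyond 40 Mb the shares were 4.37% and 12.4%.

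**Figure D3:**
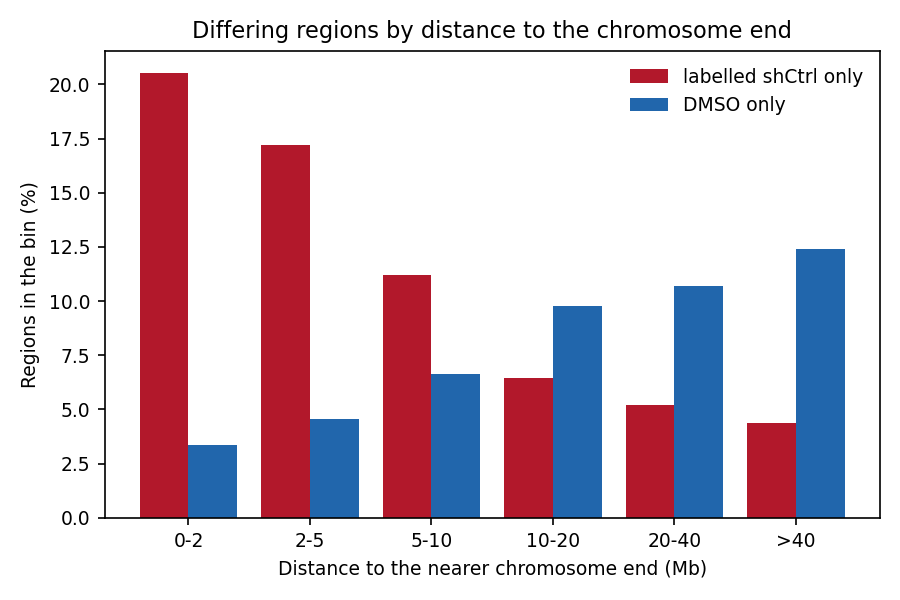
Share of the regions in each bin of distance to the nearer chromosome end (horizontal axis, Mb) that were shCtrl-only or DMSO-only (bars, percent). The shCtrl-only share is 20.5% in the outermost 2 Mb and 4.37% beyond 40 Mb, and the DMSO-only share goes from 3.35% to 12.4%.

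The shCtrl-only regions were more crowded than the DMSO-only regions. Among the 2899 windows of 1 Mb that held a region, 944 held a shCtrl-only region and 2659 a DMSO-only region. Of the 1043 windows with at least 50 regions, 96 had a shCtrl-only share of 20% or more, and these 96 held 7098 (50.8%) of all shCtrl-only regions. A DMSO-only share of 20% or more occurred in 83 such windows, which held 7.62% of the DMSO-only regions, and no window reached 20% for both. What share of all regions these windows held was not worked out, and windows with fewer than 50 regions are left out. The windows were picked by the share of the class itself, so these percentages are not support for crowding. The region next in order to a shCtrl-only region was again shCtrl-only in 29.2% of cases and DMSO-only in 0.774%, with a median gap of 605 bp. The region next to a DMSO-only region was DMSO-only in 17% and shCtrl-only in 0.736%, with a median gap of 7759 bp. Of all regions, 8.04% were shCtrl-only and 9.54% DMSO-only, so both classes lay next to their own class more often than that. The median distance to the nearest region present in all 4 lists was 4678 bp for shCtrl-only and 12118.5 bp for DMSO-only regions.

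The density of shared open sites went the same way. In windows with 5 to 9 regions present in all 4 lists, 0.771% of regions were shCtrl-only and 17.5% DMSO-only. In windows with 40 to 79 such regions the shares were 16.6% and 3.46%. In the 27 windows with 80 or more they were 15.2% and 4.45%.

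The windows with the highest shCtrl-only share (hg19) lay near chromosome ends. On chromosome 16 from 1000001 to 2000000, 162 of 369 regions (43.9%) were shCtrl-only and 2 DMSO-only. In lists of 93488 peaks the shCtrl libraries had 355 and 304 peaks there and the DMSO libraries 74 and 79. The LHCN libraries had 44 to 52, the QC6352 libraries 172 and 249, those labelled shKDM4B-813 55 and 154, and those labelled shKDM4B-814 139 and 136. Both shCtrl libraries were thus above all 12 others in this window, and the DMSO libraries were the lowest of RH30 save the first labelled shKDM4B-813.

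The window on chromosome 19 from 1000001 to 2000000 had 192 shCtrl-only regions of 453 (42.4%) and 0 DMSO-only, and the one from 1 to 1000000 had 147 of 355 (41.4%) and 1. Their peak numbers were 425 and 405, and 287 and 276, in the shCtrl libraries, against 101 and 108, and 55 and 61, with DMSO. On chromosome 9, the window from 136000001 to 137000000 had 172 of 430 (40%) and the one from 138000001 to 139000000 had 160 of 403 (39.7%). The window on chromosome 11 from 1000001 to 2000000 had 135 of 340 (39.7%). In these 5 windows, as in the first, the shCtrl libraries had more peaks than any other library of the series. A window of 5 Mb on chromosome 9 from 135000001 to 140000000 still held 649 shCtrl-only regions among 1840 (35.3%).

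The windows with the highest DMSO-only share were inside chromosome arms and held few regions. On chromosome 4 from 77000001 to 78000000, 19 of 51 regions (37.3%) were DMSO-only and 0 shCtrl-only. The lists of 93488 peaks had 43 and 45 peaks there with DMSO and 18 and 22 with shCtrl. They had 40 to 56 in the LHCN libraries, 32 and 28 with QC6352, 43 and 37 for those labelled shKDM4B-813, and 32 and 31 for those labelled shKDM4B-814. Here the shCtrl libraries were the lowest of all 14, and the DMSO libraries lay within the range of the LHCN libraries.

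The other 5 leading windows of this class were chr12:76000001-77000000 (37.0% DMSO-only), chr7:92000001-93000000 (36.2%), chr8:29000001-30000000 (35.7%), chr2:159000001-160000000 (35.2%) and chr4:48000001-49000000 (34.0%). None of them held a shCtrl-only region. The shCtrl libraries had 12 to 24 peaks in each of these windows, and the DMSO libraries 35 to 49. Windows were picked by share, so no test was made.

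The single regions are named by the lower of their 2 percentiles. The strongest shCtrl-only region lay on chromosome 19 from 835179 to 835820 (642 bp, hg19). The authors' fold over background, which describes a peak within its own list, was 13.4 and 13.9 in the shCtrl lists, and no peak was listed there with DMSO. It was 4.73 and 7.59 in the QC6352 lists, 4.05 to 7.30 in the 4 other hairpin lists, and no LHCN list had a peak. The region was therefore listed in all 6 other RH30 lists, although in neither DMSO list.

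Broad regions followed. One on chromosome 9 from 139397433 to 139403750 spanned 6318 bp, with fold values of 10.4 and 11.7 in shCtrl. On chromosome 17, regions from 17624756 to 17629879 (5124 bp), from 42393389 to 42399371 (5983 bp) and from 73812650 to 73816989 (4340 bp) had fold values of 10.3 to 11.9. A region on chromosome 1 from 980223 to 983698 (3476 bp) had 10.4 and 10.6. Over the 10 leading shCtrl-only regions the fold values were 9.66 to 13.9, and 6 lay within 5 Mb of a chromosome end. In the lists as deposited, 4 of the 10 had a weaker peak in a DMSO list, 9 had a peak in both QC6352 lists, 7 in all 4 other hairpin lists, and 9 in no LHCN list.

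The strongest DMSO-only region lay on chromosome 12 from 14569573 to 14569953 (381 bp). Its fold values were 23.6 and 18.9 in the DMSO lists, and the second shCtrl list as deposited had a weak peak there at 4.77. The values were 8.73 and 9.26 with QC6352 and 9.02 to 13.5 in the 4 other hairpin lists, and all 4 LHCN lists had a peak. A second DMSO-only region on the same chromosome, from 14402242 to 14402619, had 19.6 and 15.9 with DMSO, no peak in either shCtrl list and none in LHCN.

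Other leading DMSO-only regions were chr1:93219472-93220141, chr4:120057685-120058091, chr7:80914466-80914938 and chr7:84330704-84331041. Their fold values were 16.3 to 17.9. Chromosome 8 held 3 more, among them the region from 72178164 to 72178535 (18.9 and 15.9). The 10 leading regions were 296 to 908 bp wide, and none lay within 5 Mb of a chromosome end. As deposited, 8 of the 10 were listed in all 4 LHCN libraries and 8 in all 4 other hairpin libraries, and 2 had a weaker peak in a shCtrl list.

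The 10 libraries that the rule did not use showed where else the differing regions were open. All lists were trimmed to 93488 peaks for this. The shCtrl-only regions had few peaks in LHCN, with shares of 4.20% to 4.50% over the 4 libraries, and 13080 of them (93.7%) had none in any LHCN library. The DMSO-only regions had a peak in 43.2% to 46.6%, and 5728 (34.6%) had one in all 4. The regions present in all 4 lists had 65.6% to 73.1%. In the LHCN lists as deposited the shares were higher, at 9.29% to 12.1% for the shCtrl-only regions and 58.4% to 63.7% for the DMSO-only regions. A comparison at equal strength was made as well. Among all regions with a peak in both shCtrl libraries, those of equal strength (20 bins of percentile) had a peak in LHCN in 28.5% to 31.7% of cases, and the shCtrl-only regions reached 0.135 to 0.157 times that share. For the DMSO-only regions, set against regions with a peak in both DMSO libraries, the ratio was 1.02 to 1.07. Each reference includes the class itself, which draws these ratios towards 1.

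In the other RH30 libraries the shCtrl-only regions had their lowest shares with hairpins. The shares were 5.04% and 18.8% in the libraries labelled shKDM4B-813, 13.7% and 20.04% in those labelled shKDM4B-814, and 23.4% and 46.1% with QC6352. The QC6352 libraries were thus above all 4 hairpin libraries, 34.8% ± 16.0 (SD, n = 2) against 14.4% ± 6.81 (n = 4). An exact permutation test over libraries, two-sided, gave p = 0.133, the smallest that 4 against 2 allows, and p = 0.267 after Benjamini-Hochberg adjustment over 2 tests. The 4 hairpin libraries pool 2 labelled hairpins and are not replicates of a single condition. By peak name, those labelled shKDM4B-814 carry shCtrl, and the test was not run by peak name. The separation was lost with these lists as deposited, when the shares were 35.7% and 81.5% with QC6352, 24.6% and 50.7% in the libraries labelled shKDM4B-813, and 17.9% and 20.04% in those labelled shKDM4B-814. At equal strength, with the class itself again in the reference, the shares would be 40.2% to 50.8% in the hairpin libraries and 45.7% and 58.0% with QC6352. Of the shCtrl-only regions, 35.6% had a peak in none of these 6 libraries and 0.559% in all 6.

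The DMSO-only regions had overlapping shares in the hairpin and QC6352 libraries. The shares were 50.7% and 41.9% in the libraries labelled shKDM4B-813, 47.8% and 39.4% in those labelled shKDM4B-814, and 43.8% and 44.6% with QC6352. The hairpin mean was 44.9% ± 5.20 (n = 4) and the QC6352 mean 44.2% ± 0.529 (n = 2), with overlapping values (exact permutation test, two-sided, p = 0.933, also after adjustment). The hairpin libraries are pooled here as well, with the same limit. At equal strength the shares would be 55.2% to 60.9% in the hairpin libraries and 52.3% and 55.1% with QC6352. The DMSO-only regions reached 0.683 to 0.887 times these shares over the 6 libraries, and the reference again includes the class itself. A peak in none of the 6 libraries was seen for 18.6% and in all 6 for 11.3%.

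**Figure D4:**
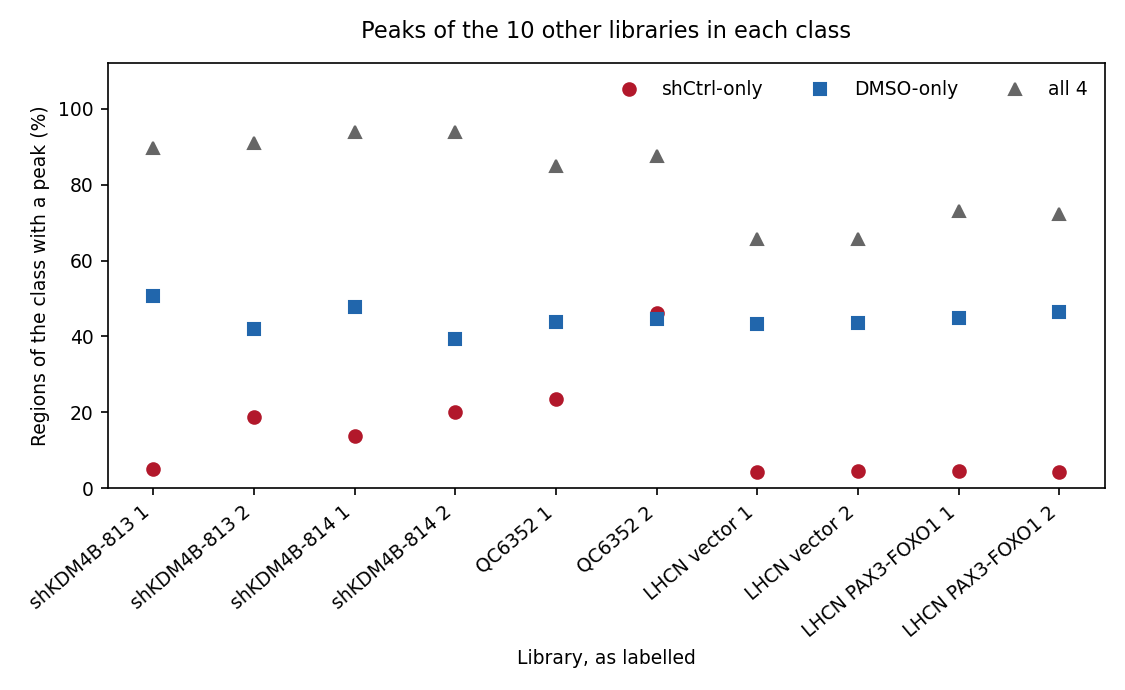
Share of shCtrl-only, DMSO-only and all-4 regions (vertical axis, percent) with a peak in each of the 10 other libraries, as labelled, in lists of 93488 peaks. The shCtrl-only regions lie at 4.20% to 4.50% in LHCN and rise to 46.1% in the second QC6352 library, while the DMSO-only regions stay between 39.4% and 50.7%.

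Within the classes, broad and narrow members had different shares with QC6352. The 3746 shCtrl-only regions of 1 kb or more had a peak in 37.7% and 69.8% of cases in the QC6352 libraries, and the 10213 narrower ones in 18.2% and 37.4%. The broad ones were also stronger, with a median lower percentile of 40.7 against 18.8. Over the 4 other hairpin libraries the ranges of their shares overlapped, at 4.59% to 33.0% for the broad and 5.21% to 15.3% for the narrower regions. The ranges in LHCN overlapped too, at 4.06% to 5.02% and 4.12% to 4.53%. Both sets were scored in the same libraries, and these ranges do not compare them within each library. A peak counted from 1 bp of overlap, so width alone could raise a share, which was not tested. The broad ones lay within 5 Mb of a chromosome end in 49.9% of cases, against 35.0%. Among the DMSO-only regions, those with a peak in all 4 LHCN libraries had a median lower percentile of 39.3, against 23 for the 7550 with none. They also had a peak more often in the other hairpin libraries, at 57.2% ± 7.84 (SD, n = 4) against 34.1% ± 3.63.

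Whole lists shared the tilt of the differing regions. Of the 93488 strongest peaks, 20.7% and 20.3% lay within 5 Mb of a chromosome end in the shCtrl libraries and 11.3% and 11.9% in the DMSO libraries. The share was 13.2% and 13.1% with QC6352, 9.57% and 12.7% in the libraries labelled shKDM4B-813, 12.6% and 14.4% in those labelled shKDM4B-814, and 8.75% to 9.01% in LHCN. Chromosomes 16, 17, 19 and 22, grouped after their values were seen, held 22.2% and 20.5% of the peaks in the shCtrl libraries and 12.7% and 13% in the DMSO libraries. With QC6352 they held 18.5% and 15.9%. The shCtrl libraries were the highest of the series in both measures. The part of this tilt in the differing regions was not tested.

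A stricter rule kept the order of the classes in width, position and peaks in LHCN. It required a peak among the 50000 strongest in both libraries of one group and none in the deposited lists of the other. Of 71996 regions, 1270 were then shCtrl-only and 2259 DMSO-only, against 13959 and 16568 of 173631 before. Their median widths were 1224 bp and 362 bp, against 676 bp and 338 bp before. Regions present in all 4 lists were not described under this rule. Within 5 Mb of a chromosome end lay 58.0% of the former and 4.29% of the latter. The mean share with a peak over the LHCN libraries was 4.27% and 63.4%.

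By the names inside the lists, the control hairpin libraries are those labelled shKDM4B-814, and against DMSO they gave another picture. At the same list length of 93488 peaks, the libraries labelled shCtrl gave 11888 hairpin-only regions (7.84% of 151582) and 15040 DMSO-only regions (9.92%). The libraries labelled shKDM4B-814 gave 4738 (3.32% of 142618) and 7738 (5.43%). The DMSO libraries are the same in both comparisons. The Jaccard index with DMSO was 0.430 to 0.440 for the libraries labelled shCtrl and 0.524 to 0.575 for those labelled shKDM4B-814. Between the replicates it was 0.543 and 0.571. By peak name, 1 of the 4 values across groups (0.575) was as high as the value within the hairpin pair.

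The broad, end-near class was far smaller by peak name. The hairpin-only regions had a median width of 327 bp, against 754.5 bp by title, and the DMSO-only regions 341.5 bp against 340 bp. The whole lists of 93488 peaks differed in width as well. Their median peak widths were 319 and 307 bp for the libraries labelled shKDM4B-814 and 388 and 407 bp for those labelled shCtrl. As deposited, the former held 99660 and 93488 peaks and the latter 135927 and 146395. The part of these list differences in the narrower class was not tested. Within 5 Mb of a chromosome end lay 18.8% of the hairpin-only regions by peak name and 40.1% by title. The mean share with a peak in LHCN was 24.8% by peak name and 4.91% by title. For DMSO-only regions it was 38.1% and 48.9%. Over chromosomes 1 to 22 and X, the hairpin-only share ran from 2.03% (chromosome 15) to 5.70% (chromosome 20) by peak name, and from 0.580% (chromosome 18) to 17.8% (chromosome 19) by title. On chromosome 19 it was 2.84% by peak name, below the DMSO-only share of 4.98%, so that the direction there turned.

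**Figure D5:**
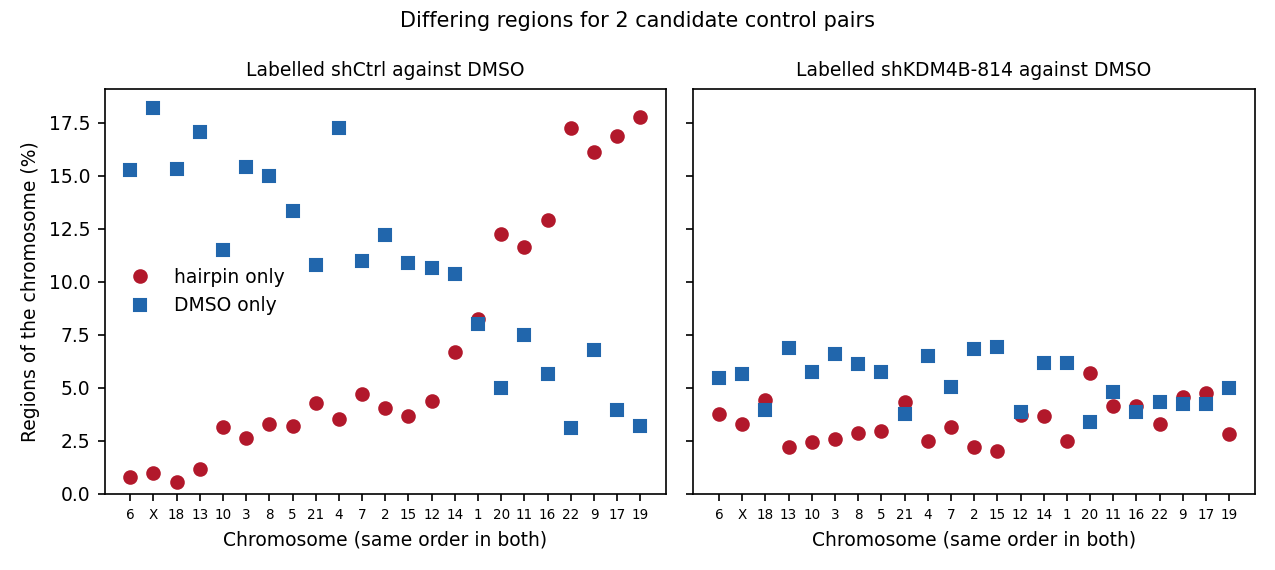
Share of each chromosome's regions (vertical axis, percent) found only with the hairpin libraries (circles) or only with DMSO (squares), for the libraries labelled shCtrl (left) and those labelled shKDM4B-814, whose peak names carry shCtrl (right), in lists of 93488 peaks. The hairpin-only share spans 0.580% to 17.8% on the left and 2.03% to 5.70% on the right.

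The leading windows moved in the same way. On chromosome 16 from 1000001 to 2000000, 15 of 202 regions (7.43%) were hairpin-only by peak name and 4 DMSO-only. On chromosome 19 from 1000001 to 2000000 the numbers were 20 of 225 (8.89%) and 5. On chromosome 4 from 77000001 to 78000000, 9 of 47 regions (19.1%) were DMSO-only and 1 hairpin-only. The highest hairpin-only share by peak name was in a window that had not led by title, on chromosome 12 from 17000001 to 18000000, with 14 of 76 regions (18.4%) and 0 DMSO-only. The highest DMSO-only share was on chromosome 7 from 102000001 to 103000000, with 13 of 53 (24.5%).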

How the data were processed

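Per the labels' protocols, each ATAC-seq library came from 100000 cells, cut by Tn5 for 30 min and amplified over 12 PCR cycles. The submitters' processing notes name MACS2 2.1.1, SAMtools 1.3.1, BWA 0.7.12-r1039, Picard 1.65 and hg19. How these tools were set, which reads were filtered and whether reads were shifted is not given in the sources used. The authors deposited 1 peak list per library, each peak with a score (not used), a fold ratio over background, −log10 p and −log10 q. The fold and q are the authors' own, used to rank and describe peaks within a list. Read depth is not given by the lists, so precision rests on the spread between libraries.

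Lists were trimmed by −log10 q, then fold, then position, and merged by 1 bp (Python 3.11.15, pandas 2.3.3, SciPy 1.17.1). Trimming by fold first gave the same counts, widths and percentiles, so it is not a separate check. The code was run on simulated lists, which checked only that planted strong differences were recovered. Other regions called there were not counted. The rule for named items took, for each class, 10 regions ranked by the weaker library's percentile and the 6 windows of 1 Mb with the highest share among those with at least 50 regions. Members and rules were chosen with earlier results of these data known. Groups and replicate numbers came from the titles. Same-numbered libraries did not deviate together (r = 0.018 over 45679 regions), so numbers were not read as pairs. Gene annotation, sequence and marker genes of hg19 were not used here, so regions carry no gene names and the label RH30 was not checked against markers; the lists planned for that were not run.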

Additional observations from a re-analysis of the deposited data

Results flagged for a closer look

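The peak names inside 6 hairpin libraries carry another hairpin than the sample titles. They stood out because no comparison uses that column, and because the names match the titles in the other 8 libraries. Under the titles the control hairpin libraries differed from DMSO in more regions than under the names, as given above. No group had 4 or more libraries, so single libraries were not tested as outliers.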

How the results depend on the processing

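The shCtrl-only and DMSO-only counts by title were 13959 and 16568. With the lists as deposited they were 23913 and 15721. With the strongest 50000 peaks of each list they were 4779 and 7240, with a −log10 q of at least 10 for every peak 3039 and 12373, and with strong peaks against absent ones 1270 and 2259. These settings change how many peaks enter and how many regions there are, 173631 in the main comparison and 71996 under the last of them. The counts alone therefore do not show a change in share. By peak name, an alternative chosen after seeing the data, they were 4738 and 7738. Leaving out 1 library gave 17309 to 36534 shCtrl-only and 22297 to 44873 DMSO-only regions, again without region totals. With the replicate block, which asks for the same difference in each numbered pair, the counts were 13959 and 16568 by construction. The share of DMSO-only regions in the shKDM4B libraries minus that in the QC6352 libraries was 0.735 percentage points, and -1.40 with the other RH30 lists as deposited; the cause was not tested. For shCtrl-only regions it was negative in all 9 alternatives run (-30.3 to -13.1, against -20.4). The shCtrl-only regions were wider than the DMSO-only regions in 7 of 8 alternatives, by peak name being the exception (327 against 341.5 bp). These 7 use the same shCtrl and DMSO libraries and are not independent checks. Trimming by fold first, also among the 9 alternatives above, returned the main values (676 and 338 bp, and -20.4). Windows of 500 bp on summits (626 against 538 bp) give every peak the same length, so they cannot test peak width.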

Other observations

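The 2 libraries labelled shKDM4B-813 differed from each other in the measures that set the shCtrl-only regions apart. The first had a peak in 5.04% of the shCtrl-only regions and the second in 18.8%, and 9.57% and 12.7% of their 93488 strongest peaks lay within 5 Mb of a chromosome end. In the window of chromosome 16 from 1000001 to 2000000 they had 55 and 154 peaks.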
